A study of Homo sapiens with 6 samples.

Results

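EMP1, EMP2, EMP3 and PMP22 form a small family of membrane proteins, and their transcripts were measured in 2 ovarian cancer cell lines in which the adaptor protein Hic-5 had been altered. The array carries 6 probes for these 4 genes, out of 41000 probes with 29123 gene names, chosen by gene name, with 2 for EMP1, 2 for EMP2, 1 for EMP3 and 1 for PMP22. No further probe carried an accession of one of these genes under another name. The genes were picked because EMP1 and PMP22 had already stood out in the SKOV3 comparison of these same arrays, so the SKOV3 values are given as a description with no test.

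The 5 RNAs came from 2 established human ovarian cancer lines, SKOV3 and A2780s. In SKOV3, the clones sh-S1 and sh-S2 were made with lentiviral pLKO.1-puro shRNA against Hic-5 and puromycin selection, and their Ctrl carried a scramble sequence in the same vector. In A2780s, the clone pCMV-Hic-5 was stably transfected with a tagged Hic-5 cDNA in pCMV6 under neomycin selection, and its Ctrl carried the empty vector. Each of these is 1 clone. Every array held a modified clone and the Ctrl of its line in opposite dyes, Cy3 and Cy5, and a second array exchanged the dyes, which gave 4 arrays in SKOV3 and 2 in A2780s. Dye-swapped arrays of one clone were taken as 1 replicate. This left 2 replicates in SKOV3, which share a single Ctrl RNA, and 1 in A2780s.

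PMP22 and the epithelial membrane proteins EMP1, EMP2 and EMP3 are small tetraspan glycoproteins that resemble the claudins of tight junctions. PMP22 is a component of compact myelin in Schwann cells, and a changed dosage of its gene causes inherited neuropathies of the Charcot-Marie-Tooth type. It was first found as a growth arrest specific transcript, and it is also present at epithelial cell junctions. EMP2 is known for its binding to integrins and its effect on caveolae, and the EMPs have been linked to proliferation, adhesion and blebbing of cells.

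The probes are shown because the pair on EMP1 lies at different places in the gene and gave very different values. Each is a 60-base oligo of which the first 30 bases are printed, 5′ to 3′ as the array files hold them. All positions are on the build hg19 as given in those files.

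EMP1 A_23_P76488: catgtaatttgcattactctggtggattgt
EMP1 A_24_P921446: tggccagatgtttttcacctcctccgtttt
EMP2 A_23_P106682: ttccggagctgggttgcttctgctgcagta
EMP2 A_23_P304682: agtttaaaatctgcctcgcgggatgttact
EMP3 A_23_P119362: tgttcatgttccagctctacaccatgcgac
PMP22 A_23_P100711: tgtgcctccaaggactgtctggcaatgact

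EMP1 A_23_P76488 lies at chr12:13369562-13369621 on the plus strand and begins at base 2657 of the EMP1 reference transcript. EMP1 A_24_P921446 lies 19381 bases before it, at chr12:13350181-13350240, and was designed on a cDNA clone with a partial coding sequence, at whose base 380 it begins. EMP2 A_23_P106682, at chr16:10626700-10626759, begins at base 700 of the EMP2 transcript. EMP2 A_23_P304682, at chr16:10622624-10622683, begins at base 4776 of the same transcript, 4076 bases further along the minus strand. The EMP3 probe is at chr19:48832675-48832734 on the plus strand and the PMP22 probe at chr17:15133208-15133267 on the minus strand. They begin at base 501 and base 1687 of their transcripts. Apart from A_24_P921446, each probe was thus designed on spliced reference transcript sequence of its gene.

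Some facts of the whole series bear on these values. TGFB1I1, the gene of Hic-5, had a mean log2 ratio of 0.03 ± 0.07 (SD, n = 2 clones) over Ctrl in SKOV3, with -0.16, 0.12, -0.12 and 0.28 on the 4 arrays, so its probe was not lower in the RNAs that the labels call sh-S1 and sh-S2. In A2780s it was higher by 4.05 and 2.60, a mean of 10.0-fold. For the SKOV3 clones, the authors reported suppressed Hic-5 by PCR and Western blot. The intensity of the TGFB1I1 probe in SKOV3 is not given here. The SKOV3 arrays were dim in Cy5, with a median net intensity of 9.52 to 25.5 against 373 to 530 in Cy3, while the A2780s arrays had 441 to 568 in Cy5 and 325 to 369 in Cy3. Over 23728 probes, the Cy3 levels of sh-S1 and sh-S2 correlated at 0.907 and 0.897 with SKOV3 Ctrl and at 0.936 and 0.953 with A2780s Ctrl, and in Cy5 the order was the other way, 0.956 and 0.95 against 0.916 and 0.923. These are correlations across probes, which are not independent. Among markers, the epithelial keratins KRT8, KRT18 and KRT19 were called lower in the sh clones, with log2 ratios of -2.14, -3.53 and -2.55, and EPCAM and CDH1, the remaining epithelial markers, did not pass the filter on dim probes there. KRT8 and KRT18 have further probes, for which the values reached only -0.38 and 0.01. PAX8, a Müllerian marker, was called lower at -3.58, 1 of 3 such genes tested, with -0.06 on its other probe. In A2780s KRT18 was called higher at 0.59, and no other epithelial or Müllerian marker was called. None of the glial, fibroblast, leukocyte or endothelial marker genes that passed the filter was called in either line. The part of these differences in the ratios below was not tested.

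All 6 probes passed the filter on dim probes in both lines and were well above background in both RNAs on 6 of 6 arrays. In SKOV3, a probe was called at a limma adjusted p of at most 0.05 and at least 2-fold. By this rule EMP1 A_23_P76488 was higher and PMP22 was lower, 2 of the 6 probes, while 7.14% of the 24955 probes tested were called (2.98% higher, 4.16% lower). Since this comparison chose the genes, nothing is read from that count. In A2780s, a probe was called at a mean of at least 1.5-fold with the same direction on both arrays, without a test. EMP1 A_23_P76488 was called there too, but lower, 1 of the 6 probes, against 4.58% of 30530 probes in either direction, 3.26% higher and 1.32% lower.

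**Figure D1:**
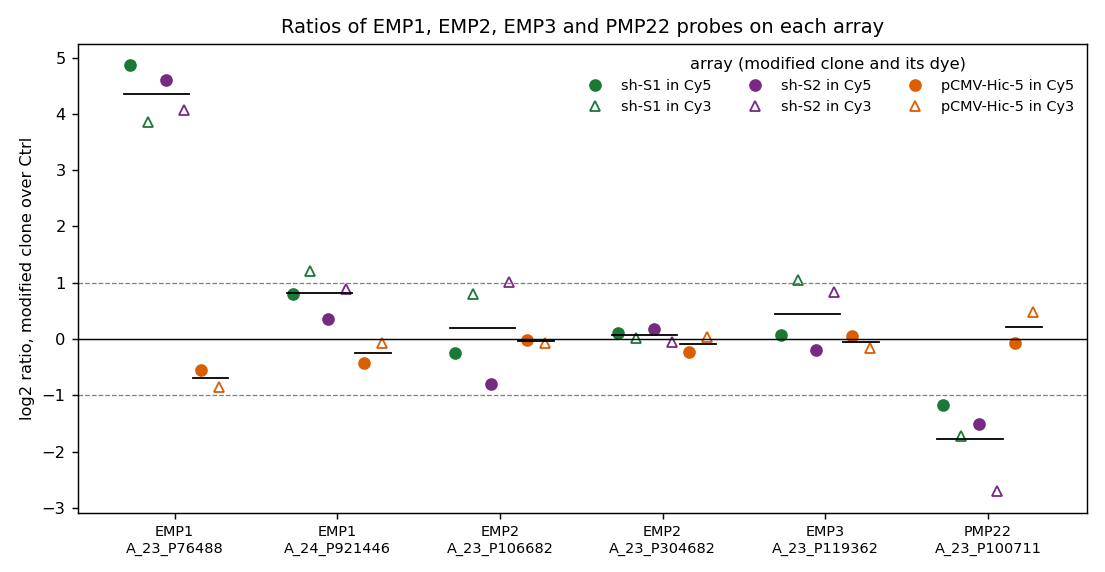
Log2 ratio of modified clone over Ctrl (y axis) for the 6 probes (x axis) on each of the 6 arrays. Green and purple mark the SKOV3 clones and orange the A2780s clone, filled circles and open triangles mark the clone in Cy5 and in Cy3, black bars are the means per cell line, and dashed lines mark 2-fold. EMP1 A_23_P76488 stands between 3.86 and 4.86 in SKOV3 and below 0 in A2780s, and PMP22 lies between -2.70 and -1.18 in SKOV3.

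EMP1, also named tumor-associated membrane protein, gave the largest change of the 6 probes. With sh-S1 in Cy5, the net intensity of A_23_P76488, meaning spot mean minus local background, was 11145 in the clone and 9343 in Ctrl, and with sh-S1 in Cy3 it was 87951 in the clone and 449 in Ctrl. For sh-S2 the values were 12495 and 8064 in Cy5, and 147464 and 665 in Cy3. Cy5 was dim on all of these arrays, so Ctrl and clone can be compared only after the dyes are normalized.

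After normalization, the log2 ratio of A_23_P76488 was 4.86 and 3.86 for sh-S1 and 4.61 and 4.07 for sh-S2, with the clone in Cy5 and in Cy3. All 4 arrays were on the same side, and the lowest of them was still 14.5-fold. The mean was 4.35 ± 0.016 (SD, n = 2 clones), which is 20.4-fold over Ctrl. Both clones were read against the same Ctrl, so a value particular to that Ctrl RNA would appear in both and cannot be told apart from a change in the clones. The SD of clones is small beside the gap between dye orientations, 1.00 in sh-S1 and 0.54 in sh-S2. By size this probe ranked 4 from the highest among the 24955 tested.

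The second EMP1 probe, A_24_P921446, was higher on the same 4 arrays but far less so, by 0.80 and 1.22 for sh-S1 and by 0.35 and 0.89 for sh-S2. Its mean was 0.82 ± 0.27 (SD, n = 2 clones), short of 2-fold. The difference between the EMP1 probes on the same array was 4.06 and 2.64 for sh-S1 and 4.25 and 3.18 for sh-S2. Net intensities of A_24_P921446 in Cy5 were 57.2 in sh-S1 and 55.5 in sh-S2 and, on the exchanged arrays, 42.0 and 49.9 in Ctrl, close to the offset of 50 that was added before taking logs. With an offset of 10 its mean was 1.07, and with the processed signals of the scanner software it was 1.28, and it was called under both. Without sh-S2, the remaining clone gave 1.01, just over 2-fold. The probes thus had the same direction in SKOV3 and differed in size on every array. Whether they detect the same transcripts was not tested.

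In A2780s, EMP1 was below Ctrl. A_23_P76488 gave net intensities of 333504 in pCMV-Hic-5 and 216782 in Ctrl with the clone in Cy5, and of 117057 and 338696 with the clone in Cy3. These arrays had 1 and 16 saturated spots in Cy5, and whether this probe was among them is not given here. The log2 ratios of A_23_P76488 were -0.55 and -0.85, with a mean of -0.70, which is 1.62-fold lower than Ctrl. It ranked 202 from the lowest among 30530 probes. The Cy5 array alone did not reach 1.5-fold. A_24_P921446 had -0.43 and -0.06, with a mean of -0.25, and was not called. Both EMP1 probes were therefore below Ctrl on both A2780s arrays. The -0.06 of A_24_P921446 was, however, smaller in size than the median absolute change of 0.14 over all probes.

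PMP22, the myelin protein, had 1 probe. With the clone in Cy5 and in Cy3, its log2 ratio was -1.18 and -1.72 for sh-S1 and -1.51 and -2.70 for sh-S2, lower than Ctrl on 4 of 4 arrays. The mean was -1.78 ± 0.47 (SD, n = 2 clones), which is 3.43-fold lower, and it ranked 382 from the lowest of the probes tested. In Ctrl, its net intensity in Cy3 was 5229 and 4593 on the arrays of sh-S1 and sh-S2, against 947 and 1023 in the clones when these were in Cy3. Its net intensities in Cy5 were much lower, 23.2 and 22.8 in the clones and 206 and 449 in Ctrl. For PMP22, sh-S2 minus sh-S1 was -0.34 in Cy5 and -0.98 in Cy3, a mean of -0.66, where EMP1 A_23_P76488 had a mean of -0.02 and EMP1 A_24_P921446 of -0.39. With the clones in Cy3, their net intensities of 947 and 1023 were similar, while the same Ctrl RNA had 206 and 449. The PMP22 value is therefore not read as a difference between the clones. In A2780s, PMP22 had -0.07 and 0.48 on the exchanged arrays, on either side of 0, with a mean of 0.21.

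EMP2, the integrin-binding member, was not called in either line. In SKOV3, A_23_P106682 was -0.24 and -0.79 for sh-S1 and sh-S2 in Cy5 and 0.80 and 1.02 in Cy3. Its sign thus followed the dye and not the clone, and the mean of 0.20 ± 0.12 (SD, n = 2 clones) averages opposite values. A_23_P304682 lay between -0.05 and 0.18 on the 4 arrays, with a mean of 0.07 ± 0.003. Its net intensities in Cy5 were 33.1 in sh-S1 and 41.9 in sh-S2 and, on the exchanged arrays, 57.9 and 74.7 in Ctrl. These lie around the offset of 50 that was added before taking logs. With an offset of 10 its mean was 0.10, and with the processed signals of the scanner software it was 0.20. The small SD is therefore not read as a precise absence of change. In A2780s both probes had a mean near 0, with -0.04 and -0.09.

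EMP3, known as a gene that is silenced by methylation in some gliomas, also differed between the dyes. In SKOV3 its log2 ratios were 0.07 and -0.20 for sh-S1 and sh-S2 in Cy5 and 1.05 and 0.84 in Cy3, with a mean of 0.44 ± 0.17 (SD, n = 2 clones). In A2780s they were 0.05 and -0.15. EMP3 was not called in either line. Averaged over the dyes, it was 0.56 in sh-S1 and 0.32 in sh-S2, both above 0 and short of 2-fold. A dye effect cancels in this mean only where it is equal in both orientations, which was not tested. With median centring the mean of the clones was 0.24.

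**Figure D2:**
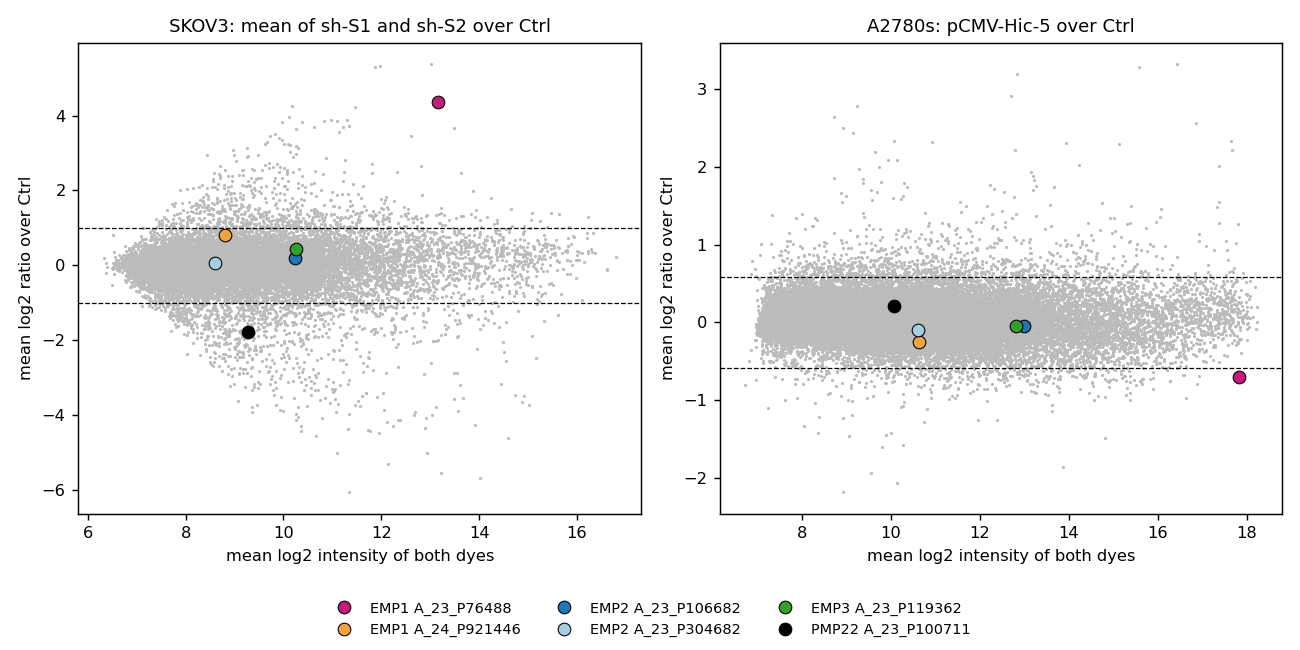
Mean log2 ratio over Ctrl (y axis) against mean log2 intensity of both dyes (x axis) for all probes that passed the filter, in SKOV3 (left) and in A2780s (right), with the 6 probes as coloured points and the fold thresholds as dashed lines. EMP1 A_23_P76488 is among the bright probes in both lines, at 4.35 in SKOV3 and -0.70 in A2780s, and 4 of the 6 probes lie between the dashed lines in SKOV3 and 5 in A2780s.

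Levels in the single channels set all RNAs side by side. They are log2 values after normalization within and between arrays and are compared only within a probe. Given are the mean over 2 channels, or 4 for SKOV3 Ctrl, and their range. Within SKOV3 they are rebuilt from the same ratios by which EMP1 and PMP22 were chosen. The gap between SKOV3 Ctrl and the sh clones is thus that same result and no further support. For EMP1 A_23_P76488, SKOV3 Ctrl was lowest, at 11.98 (11.79 to 12.12). The levels of sh-S1, 16.32 (15.65 to 16.98), and sh-S2, 16.34 (15.99 to 16.69), lay between those of A2780s Ctrl, 16.73 (16.37 to 17.09), and pCMV-Hic-5, 16.03 (15.52 to 16.54). The ranges of these 4 RNAs overlapped with their neighbours in the order, and SKOV3 Ctrl overlapped with none. A2780s Ctrl was above SKOV3 Ctrl by 4.76. With quantile normalization of all channels this was 5.13, and A2780s Ctrl (16.55 to 17.59) no longer overlapped with sh-S2 (16.13 to 16.18), with sh-S1 and sh-S2 at -1.06 and -0.92 relative to A2780s Ctrl in place of -0.42 and -0.39.

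For PMP22, SKOV3 Ctrl was at the other end of the order. It was highest, at 11.03 (10.81 to 11.47), followed by sh-S1 at 9.43 (9.09 to 9.77), sh-S2 at 9.08 (8.77 to 9.39), pCMV-Hic-5 at 8.92 (8.83 to 9.01) and A2780s Ctrl at 8.72 (8.54 to 8.90). Each RNA after SKOV3 Ctrl overlapped with the next, and SKOV3 Ctrl was again apart from all others. A2780s Ctrl was below SKOV3 Ctrl by 2.32 on the log2 scale. The arrays of the lines may lie on different slides, so cell line and slide may not be told apart in these differences.

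For EMP1 A_24_P921446 the order was another one. Here sh-S1, at 10.24 (9.86 to 10.62), overlapped with sh-S2, at 9.75 (9.56 to 9.94), and both were above A2780s Ctrl at 9.33 (9.24 to 9.42), SKOV3 Ctrl at 9.18 (9.05 to 9.40) and pCMV-Hic-5 at 9.08 (8.99 to 9.17). A2780s Ctrl and SKOV3 Ctrl differed by only 0.15, where A_23_P76488 had 4.76. On both EMP1 probes SKOV3 Ctrl was thus below both sh clones, but only A_23_P76488 set the control RNAs of the lines apart.

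EMP2 and EMP3 varied less. For EMP2 A_23_P106682 the means of the 5 RNAs ran from 11.02 in pCMV-Hic-5 to 11.55 in sh-S1 and each RNA overlapped with the next, with SKOV3 Ctrl alone spread from 10.36 to 11.58. For EMP2 A_23_P304682 they ran from 9.15 in pCMV-Hic-5 to 9.48 in sh-S1, and sh-S1 (9.45 to 9.50) lay just above SKOV3 Ctrl (9.08 to 9.42) while the others overlapped. For EMP3 they ran from 10.88 in pCMV-Hic-5 to 11.65 in sh-S1, and each neighbour in that order overlapped with the next. A2780s Ctrl and SKOV3 Ctrl differed by -0.05 and -0.06 on the EMP2 probes and by -0.09 on EMP3.

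**Figure D3:**
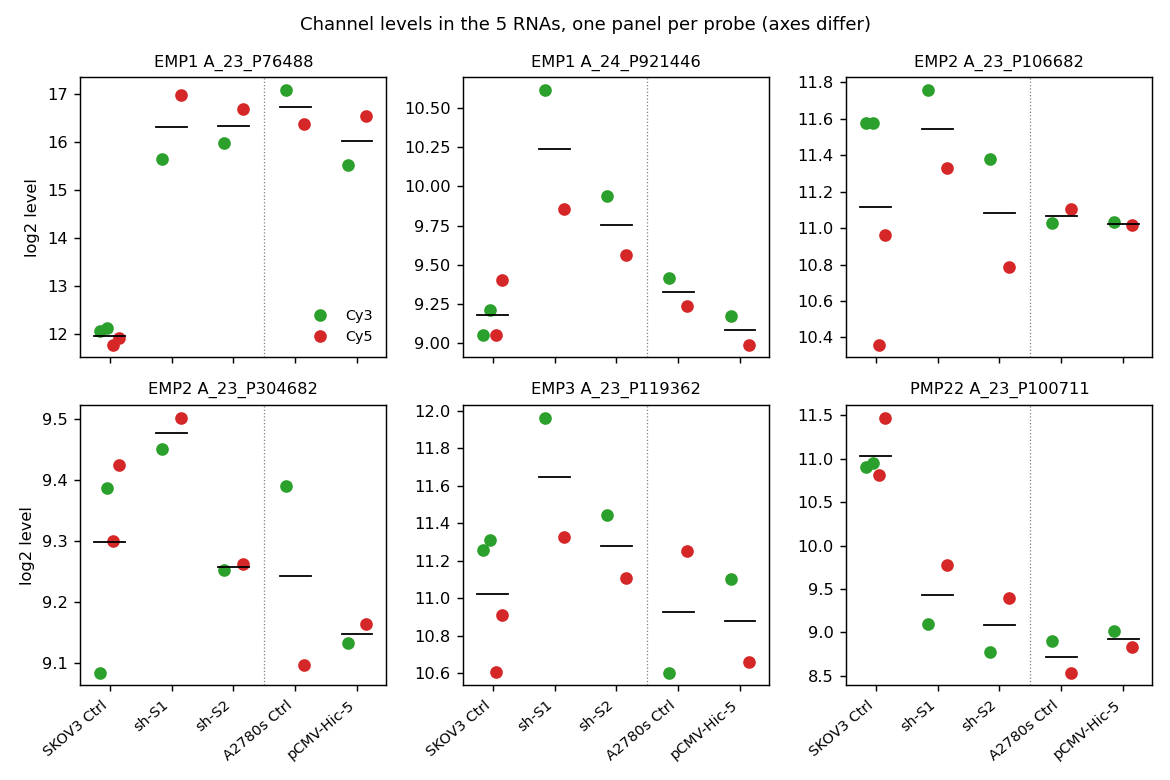
Log2 channel level (y axis, scaled per panel) of the 5 RNAs (x axis), with a panel for each probe. Points are channels, green for Cy3 and red for Cy5, bars are means and the dotted line separates the SKOV3 RNAs from the A2780s RNAs. SKOV3 Ctrl lies apart at the bottom for EMP1 A_23_P76488, at 11.98, and at the top for PMP22, at 11.03, and the means of the 5 RNAs lie between 10.88 and 11.65 for EMP3.

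Promoter composition varied within the family. In RefSeq sequences on GRCh38.p14, the 250 bases before the EMP1 start held 42.4% G and C and 3 CpG dinucleotides. Among all 35116 windows of this length the medians were 58.0% and 11, and 17.1% of windows had a lower G and C content than EMP1. The EMP2 window held 77.2% and 27 CpG, the 2 EMP3 windows 59.2% each with 9 and 4 CpG, and the 3 PMP22 windows 48.8%, 61.2% and 69.6% with 1, 15 and 26 CpG. EMP1 thus had the lowest G and C content of the 7 windows, but 1 window of PMP22 had fewer CpG. The EMP1 window is at chr12:13196476-13196725 on the plus strand and is printed since it belongs to the member with the largest change. Capitals mark its match to TGAGTCA, the letters of an AP-1 site, searched on both strands.

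EMP1 upstream: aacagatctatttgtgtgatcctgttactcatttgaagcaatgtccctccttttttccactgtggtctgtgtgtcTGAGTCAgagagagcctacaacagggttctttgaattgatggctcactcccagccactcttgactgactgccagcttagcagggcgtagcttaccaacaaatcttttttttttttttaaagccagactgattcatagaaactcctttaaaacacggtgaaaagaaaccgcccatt

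The match begins 175 bases before the start. TGAGTCA was found in 4.2% of all windows and in none of the 6 windows of EMP2, EMP3 and PMP22. GGGCGG was found in the windows of EMP1 and EMP2, in 1 of EMP3 and in 2 of PMP22, and in 42.6% of all. These are matches of letters, and no binding was measured here.

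Other genes with the most similar ratios over the 6 arrays were found by the root mean square difference of log2 ratio among 18129 probes with a gene symbol that passed the filter in both lines. For EMP1 A_23_P76488 these were LIPA, the lysosomal acid lipase, with a difference of 0.44, CCND2, the cyclin D2 of the G1 phase, with 0.46, and C1orf54 with 0.48. Their mean log2 ratios were 4.23, 3.96 and 4.27 in SKOV3 and -0.86, -0.59 and -0.17 in A2780s. For PMP22 they were ZC3H12A, a ribonuclease that degrades inflammatory transcripts, with 0.19, FERMT1, the integrin activator kindlin-1, with 0.21, and TDRD7 with 0.22. Their mean ratios in SKOV3 were -1.82, -1.71 and -1.84.

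For EMP1 A_24_P921446 the nearest were ACTR3B at 0.073, TLE4 at 0.088 and EPB41L3 at 0.13, none of them shared with the first EMP1 probe. The nearest to EMP2 A_23_P106682 were HUWE1, TERF1 and DNAJC8, those to A_23_P304682 included LINC00545 and FGD1, and those to EMP3 were PPRC1, RXRA and NUCKS1. The neighbours of EMP2 A_23_P106682 and of EMP3 had ratios from -0.73 to 1.06 and from -0.30 to 1.08 over the arrays. A spread like that of the member probe follows from how they were picked.

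Other genes related to the family were then read from lists, each gene by its brightest probe that passed the filter. These lists were chosen with earlier results of these data known, so their counts and p-values are a description. The shares over all probes count every probe that passed the filter, not 1 bright probe per gene. Of 11 relatives of the wider PMP22, EMP and MP20 group tested in SKOV3, 1 was higher and 1 was lower, with a median log2 ratio of 0.03 against 0.00167 over all probes, of which 7.14% were called. PERP, a p53 target of desmosomes, fell by 4.05 (SD 0.45, n = 2 clones, limma adjusted p = 9.44e-06). CACNG7, a subunit that regulates calcium channels and AMPA receptors, was higher by 2.38 (SD 0.10, n = 2 clones, limma adjusted p = 1.13e-05), while its other probe had -0.13. In A2780s none of 16 relatives was called, and PERP had 0.53. Of 13 claudins, 1 was lower in SKOV3, CLDN1 of tight junctions, at -2.58, with -0.36 on its other probe. No CLDN1 probe was well above background in the clones on more than 2 of 4 arrays, against 4 in Ctrl. Its size thus depends on the floor, with -5.24 from the processed signals, and no p is given. In A2780s, 1 of 17 claudins was called, CLDN23 at 0.98, while 4.58% of all probes were called there.

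Of 13 binding partners of the members tested in SKOV3, 5 were lower and none was higher, with a median of -0.48, while 4.16% of all probes tested were lower and their median was 0.00167. CAV1, the coat protein of caveolae, had a log2 ratio of -3.74 (limma adjusted p = 2.76e-06), and its other probe had -3.33. CD44, the hyaluronan receptor, had -3.73 (limma adjusted p = 2.49e-06). The integrin chains ITGA6 and ITGB1 had -1.98 and -1.85 (limma adjusted p = 1.94e-05 and 3.01e-05). The other listed integrin chains, ITGB4, ITGB3 and ITGAV, had -0.20, -0.67 and 0.76 and were not called. TGFBR2, the type II receptor of TGF-β, had -2.71 (limma adjusted p = 7.08e-06), but its other probe had -0.08. In A2780s, 1 of 12 partners was called, ITGB1 at -0.68, on another probe than in SKOV3, while 4.58% of all probes were called.

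Of 10 myelin and Charcot-Marie-Tooth genes, 2 were lower in SKOV3 and none was higher, with a median of -0.23, against the same 4.16% lower over all probes. MBP, myelin basic protein, had -1.44, and NDRG1, mutated in a recessive neuropathy, had -1.38 (limma adjusted p = 9.72e-05), but other probes of these genes reached 0.14 and 0.01. No MBP probe was well above background in the clones on more than 2 of 4 arrays, against 4 in Ctrl. For MBP no p is given, and the processed signals gave -3.98. LITAF, a lysosomal membrane protein mutated in another form, had -0.99 and was not called. In A2780s LITAF was higher at 0.66 and EGR2, the transcription factor of myelinating Schwann cells, lower at -0.91, out of 12 genes. Over all A2780s probes, 4.58% were called in either direction. Among other growth arrest specific genes, GAS5, a noncoding host of small nucleolar RNAs, was higher in SKOV3 by 1.13 (limma adjusted p = 0.00026), 1 of 3 tested, and was called higher in A2780s at 0.85, 1 of 5. Over all probes, 2.98% were called higher in SKOV3 and 3.26% in A2780s.

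**Figure D4:**
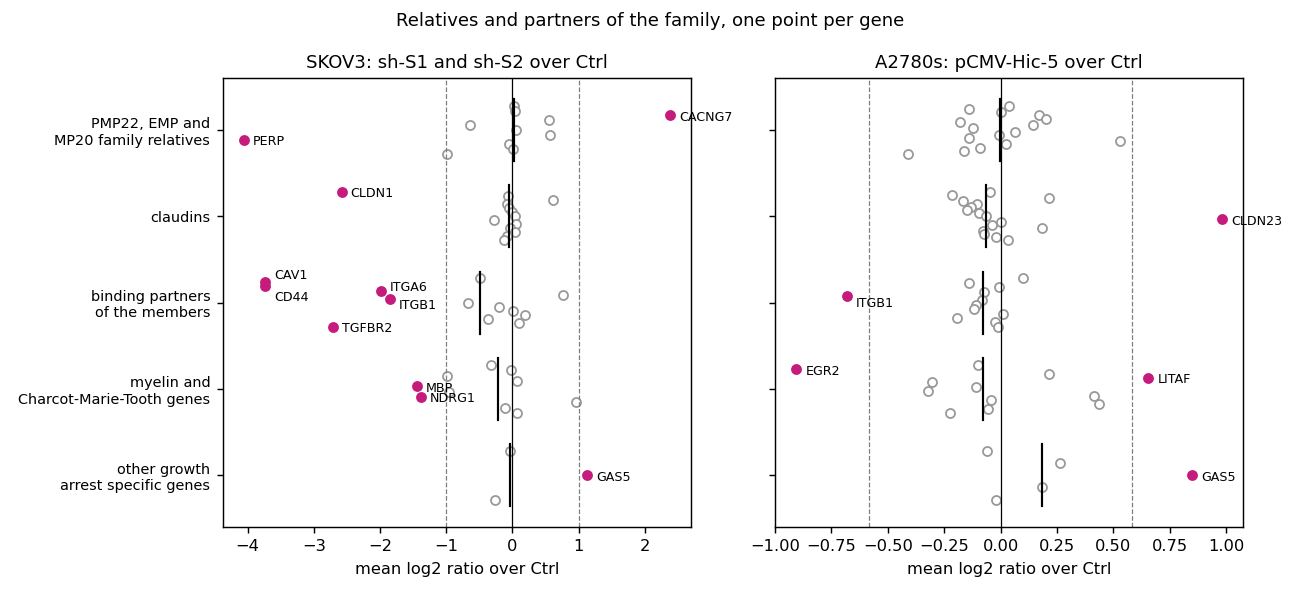
Mean log2 ratio over Ctrl (x axis) in SKOV3 (left) and in A2780s (right) for genes of 5 lists (y axis), with 1 point per gene. Filled and named points were called, black bars are list medians and dashed lines mark 2-fold on the left and 1.5-fold on the right; 5 of 13 binding partners were lower in SKOV3, with CAV1 and CD44 at -3.74 and -3.73.

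The ratios of EMP1 A_23_P76488 and PMP22 kept their direction under each of the alternative settings run in SKOV3. EMP1 A_23_P76488 ranged from 3.96 to 4.73 and PMP22 from -2.36 to -1.34. EMP1 A_24_P921446 was between 0.58 and 1.28. EMP2 A_23_P106682 ran from -0.52, with only Cy5-labelled clones, to 0.91, with only Cy3-labelled clones. In A2780s, EMP1 A_23_P76488 ranged from -1.08 to -0.55 and was the only one of the 6 probes that was called under any of them.

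**Figure D5:**
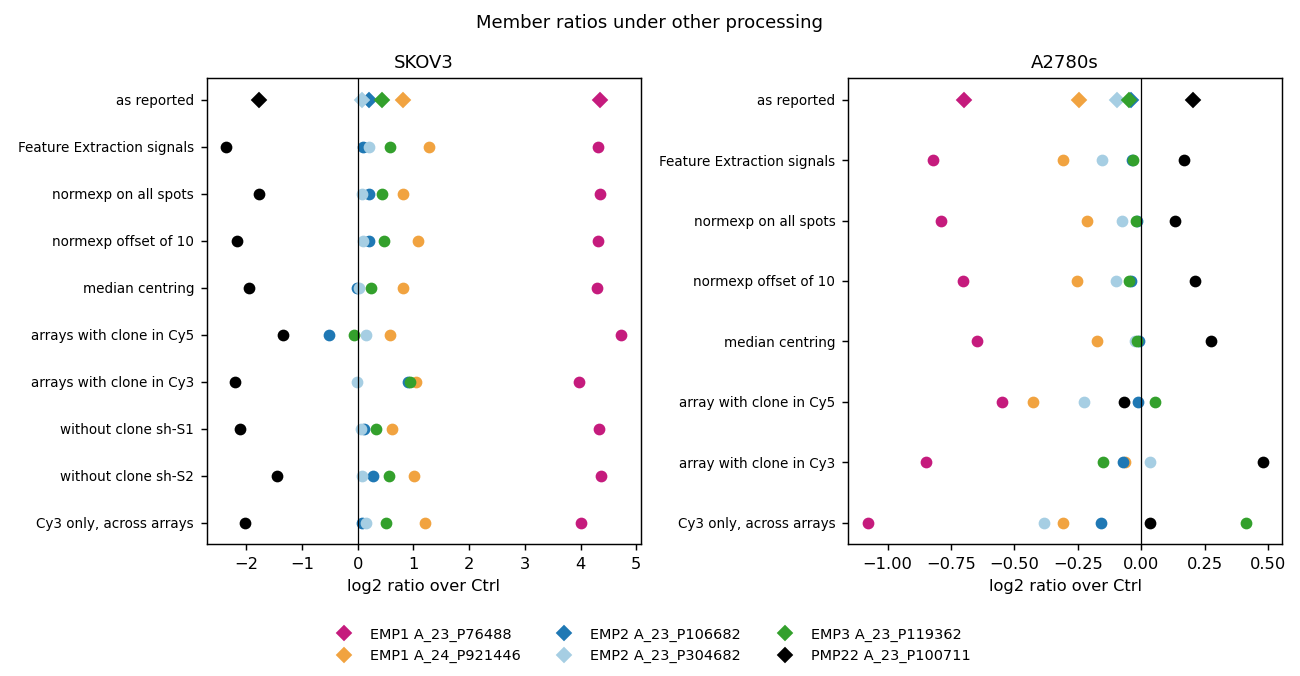
Log2 ratio over Ctrl (x axis, scaled per panel) of the 6 probes under each processing (y axis), in SKOV3 (left) and in A2780s (right). Diamonds are the values as reported and circles the alternatives; EMP1 A_23_P76488 stays between 3.96 and 4.73 in SKOV3, and EMP2 A_23_P106682 and EMP3 change sides of 0 with the dye.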

How the data were processed

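Gene expression was measured on 6 Agilent 2-colour arrays, each with RNA of a modified clone and of its Ctrl in opposite dyes, as given per the labels. The authors deposited the spot intensities written by Agilent Feature Extraction (version 8.5.1.1 per the labels, 10.7.3.1 per the file headers), together with processed intensities and the log10 ratio of Cy5 over Cy3. The deposited series values equal those log10 ratios rounded, with the dye-swapped arrays not turned, and were not used further. No column was left unmapped (0).

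Mean intensities and local background medians were imported in R 4.3.3 (package data.table, 1.17.8). In limma 3.58.1, normexp background correction used an offset of 50 and was fitted without spots of flagged background or a local background over 1000, a choice made with the data known. Loess was run within arrays, spots of a probe were averaged and every log2 ratio was set as modified clone over Ctrl. A probe passed where it was well above background in Ctrl on all arrays of the line or in either clone on each array of that clone. Dye swaps were averaged, and in SKOV3 the mean of the 2 clones was compared with 0 by lmFit and eBayes over 24955 probes, with Benjamini-Hochberg adjustment (adjusted p of at most 0.05 and 2-fold). The Ctrl is 1 RNA, so its own spread is not in the test, and nothing says that the clones stand for separate experiments, so p-values measure the spread between these RNAs. A2780s had 1 replicate and no test (1.5-fold and the same direction on 2 arrays). Channel levels were made with Aquantile between arrays. With few arrays the precision is limited by their number.

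The members, the lists of relatives, partners and markers, and the rules were chosen with earlier results of these data known. The text names every member probe, for each the 3 most similar genes by root mean square difference of ratios (1 of them is not reported here), every called gene of a list up to 6 per comparison, and markers and the targeted gene as checks. LITAF, PERP, ITGB4, ITGB3 and ITGAV are also given with values that were not called. GenBank accessions of 28078 probes were matched to RefSeq to update symbols. Promoter sequences are from RefSeq (GRCh38.p14), where 35116 windows were searched. Alternatives were the processed intensities, other normexp settings, median centring, no filter, single dye orientations, leaving out a clone, other thresholds, quantile normalization of levels and a comparison of Cy3 intensities across arrays, the last of which was chosen after seeing the data. Only the calling rules of SKOV3 and A2780s were tried on simulated ratios, which were drawn without a shared Ctrl.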

Additional observations from a re-analysis of the deposited data

Results flagged for a closer look

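The EMP1 ratios had opposite signs in the 2 lines. EMP1 A_23_P76488 was higher than Ctrl on 4 of 4 SKOV3 arrays and lower on 2 of 2 A2780s arrays, and its mean log2 ratio in SKOV3 exceeded that in A2780s by 5.05. EMP1 A_24_P921446 also was higher on 4 of 4 and lower on 2 of 2 arrays, with a difference of 1.06, but was called in neither line. On 1 of these A2780s arrays it had only -0.06. Neither difference was tested, since A2780s has 1 replicate, and the modifications differ between the lines, shRNA against Hic-5 in SKOV3 and added Hic-5 in A2780s. The lines may lie on separate slides, which could then not be told apart from the lines.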

How the results depend on the processing

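No paired analysis was possible because the replicate numbers name dye-swapped arrays and the ratios are already taken within an array. In SKOV3, 743 probes were called higher and 1038 lower. These counts were 1971 and 2355 with the processed signals of Feature Extraction, 1182 and 1650 with an offset of 10, and 1965 and 2245 at 1.5-fold. Median centring gave 1578 lower, and the arrays with the clone in Cy3 alone gave 1222 higher. The member probes called higher were 2 in place of 1 with the processed signals, with an offset of 10, on the arrays with the clone in Cy3 and at 1.5-fold, the second being EMP1 A_24_P921446. Leaving out one clone gave 788 to 836 probes higher and 984 to 1160 lower, with 1 to 2 member probes higher, 2 of them without sh-S2, where EMP1 A_24_P921446 reached 1.01. With 1 clone left, only the fold was used.

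In A2780s, 994 probes were called higher and 403 lower. The processed signals gave 693 lower, the Cy5 array alone 1797 higher and 1519 lower, and the Cy3 array alone 214 lower. At 2-fold 194 were higher and 29 lower, and with 1.5-fold required on each array 495 and 123. EMP1 A_23_P76488, the 1 member probe called lower, was lost (0 called) on the Cy5 array alone, at 2-fold and with 1.5-fold required on each array. The causes of these shifts were not tested. With Cy3 intensities compared across arrays, EMP1 A_23_P76488 was 4.0 in SKOV3 and -1.08 in A2780s and PMP22 -2.03 and 0.03. Of the called list genes in SKOV3, 8 of 11 kept their call under all 10 settings, and MBP, NDRG1 and GAS5 lost it under 1, 1 and 2 of them. In A2780s, CLDN23, ITGB1, LITAF, EGR2 and GAS5 lost their call under 2, 3, 3, 1 and 1 of 9 settings. The dim Cy5 channel in SKOV3 limits EMP1 A_24_P921446, EMP2 A_23_P304682 and PMP22. The ratios of EMP2 A_23_P106682 and EMP3 differed between the dye orientations there, which limits them too.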
